A study of Mus musculus with 7 samples.

Results

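To examine how fat cells that lack the short-chain fatty acid receptor FFA2 express acute-phase proteins, 10 transcripts that cytokines are known to induce in adipose tissue were followed in the adipocyte RNA-Seq: Lcn2, Saa1, Saa2, Saa3, Hp, Orm1, Orm2, Ptx3, Steap4 and Cp. The 10 genes were given as a list of symbols, and each was found once among the 57010 gene identifiers of the count table. All 10 passed the filter on low counts, which left 17039 genes.

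RNA had been taken from mature white adipocytes, which collagenase frees from the perigonadal fat pad, of male mice on standard chow (Teklad LM-485) and without further treatment. The controls were 3 FFA2 fl/fl mice, and the other group was 4 Adipoq-F2-KO littermates carrying the same floxed FFA2 alleles plus an Adiponectin-Cre transgene. Among the cells of the fat pad, Cre under the adiponectin promoter acts mainly in adipocytes, and no group carried Cre without the floxed alleles. The labels give an age of 20 weeks for all 7 mice. Each library is labelled as a sample of its own, and p-values measure the spread between these libraries.

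Acute-phase proteins are secreted or membrane proteins whose synthesis rises in infection and tissue injury, mostly in the liver and under the control of interleukin-6, interleukin-1 and tumor necrosis factor. These cytokines act through the factors STAT3, C/EBP and NF-kB. White fat makes several of the same proteins, among them lipocalin-2, which captures bacterial iron carriers, serum amyloid A, which travels with high-density lipoprotein, haptoglobin, which binds free hemoglobin, and the orosomucoids, which carry lipophilic molecules. Pentraxin 3 is a soluble pattern-recognition protein, STEAP4 a membrane metalloreductase for iron and copper, and ceruloplasmin a copper-containing ferroxidase.

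Total counts lay between 30478997 and 39992605 per library, and 0 counts in a library allowed up to 0.150 to 0.197 normalized CPM (counts scaled to the depth of the library), a limit that covers counting error only. Ffar2, the deleted gene, was at 37.5, 33.9 and 32.0 CPM in FFA2 fl/fl libraries and at 1.68, 1.15, 1.33 and 2.58 CPM in Adipoq-F2-KO libraries, in the direction of the labels. Adipocyte markers such as Adipoq and Plin1 were abundant in every library, but the summed 12 markers were lower in Adipoq-F2-KO libraries (37703 to 50858 CPM) than in FFA2 fl/fl libraries (51915 to 57098 CPM), with library 4 of Adipoq-F2-KO the lowest. Some libraries stood apart in RNA of neighboring tissue. Adipoq-F2-KO library 2 held 167 CPM of germ cell markers, Adipoq-F2-KO library 3 held 36.9 CPM of epididymal epithelium markers, and FFA2 fl/fl library 1 held 58.0 CPM of mesothelial markers against 11.8 to 20.99 CPM elsewhere. Mitochondrial genes took 4.41% to 5.77% of the counts in FFA2 fl/fl libraries and 6.61% to 10.3% in Adipoq-F2-KO libraries. The part of this shift in the results was not tested and, being split by genotype, cannot be told apart from it. Leaving these genes out together with an abundant unnamed gene removes only their counts. In that fit the log2 fold change of Saa3 was again 0.64, and its edgeR adjusted p went from 0.04995 to 0.0511.

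The upstream sequences are shown first for the 3 transcripts that differed by genotype, Lcn2, Saa3 and Steap4, and then for the neighboring near copies Saa1 and Saa2, whose upstream sequences are alike. They come from RefSeq on build GRCm38.p6, are 250 bases long and end 1 base before the start site. Capitals mark letters of the NF-kB consensus, of the C/EBP motif TTNNGNAAT or of the STAT3 motif TTCNNNGAA, searched on both strands and written as they read on the printed strand. Lcn2 is at chr2:32387740-32387989 (minus strand), Saa3 at chr7:46715677-46715926 (minus), Steap4 at chr5:7960222-7960471 (plus), Saa1 at chr7:46742981-46743230 (minus) and Saa2 at chr7:46751583-46751832 (plus).
Lcn2: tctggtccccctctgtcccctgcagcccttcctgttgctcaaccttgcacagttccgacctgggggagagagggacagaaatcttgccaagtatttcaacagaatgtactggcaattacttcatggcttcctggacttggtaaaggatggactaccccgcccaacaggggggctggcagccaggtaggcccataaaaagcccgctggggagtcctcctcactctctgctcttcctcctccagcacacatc
Saa3: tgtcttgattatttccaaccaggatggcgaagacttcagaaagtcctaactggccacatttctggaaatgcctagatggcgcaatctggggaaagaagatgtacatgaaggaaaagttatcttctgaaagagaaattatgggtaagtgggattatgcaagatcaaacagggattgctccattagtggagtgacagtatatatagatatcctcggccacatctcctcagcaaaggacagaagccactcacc
Steap4: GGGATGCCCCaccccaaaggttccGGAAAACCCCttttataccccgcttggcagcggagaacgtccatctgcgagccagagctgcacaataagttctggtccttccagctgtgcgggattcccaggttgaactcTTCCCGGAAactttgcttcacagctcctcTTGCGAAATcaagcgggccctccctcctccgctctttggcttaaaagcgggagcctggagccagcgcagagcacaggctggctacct
Saa1: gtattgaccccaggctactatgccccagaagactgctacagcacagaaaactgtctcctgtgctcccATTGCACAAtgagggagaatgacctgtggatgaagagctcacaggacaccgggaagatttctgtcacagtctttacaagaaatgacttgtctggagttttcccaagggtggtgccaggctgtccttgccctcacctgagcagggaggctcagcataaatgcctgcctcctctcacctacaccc
Saa2: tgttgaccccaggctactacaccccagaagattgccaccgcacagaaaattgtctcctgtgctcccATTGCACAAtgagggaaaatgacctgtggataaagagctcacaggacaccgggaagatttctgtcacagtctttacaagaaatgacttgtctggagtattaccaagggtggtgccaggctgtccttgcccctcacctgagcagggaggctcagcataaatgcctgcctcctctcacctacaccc

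The search covered these 250 bases and the first 50 after the start site in the 8 transcripts with an entry in the table, which has none for Hp or Orm1. Steap4 held the NF-kB consensus on the other strand at 2 places, GGGATGCCCC at -250 and GGAAAACCCC at -226, with the STAT3 motif TTCCCGGAA at -116 and the C/EBP motif TTGCGAAAT at -87. Saa1 and Saa2 each held the C/EBP motif on the other strand, as ATTGCACAA at -183 and -184. Orm2 held it on the other strand as ATTTCCCAA at -109. In Ptx3, the NF-kB consensus crossed the start site, as GGGGAACTCC from -1 and, overlapping it on the other strand, GGGAACTCCC from 1. No motif was found in these windows of Lcn2, Saa3 or Cp. Over all 32851 promoters in the table, 4.51% held the NF-kB consensus, 11.5% the C/EBP motif and 8.30% the STAT3 motif. Among the 8 transcripts, 2 held the first, 4 the second and 1 the third, counted per transcript and not per promoter. Saa1 and Saa2, which count separately here, are near copies with the same C/EBP sequence. No enrichment was tested.

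Compared with FFA2 fl/fl controls, adipocyte libraries of Adipoq-F2-KO mice held more Lcn2 (2.39-fold), Saa3 (1.56-fold) and Steap4 (1.44-fold) mRNA. Haptoglobin, by far the most abundant of the 10 transcripts, differed by 1.01-fold, with a 95% interval of 0.832 to 1.23. The orosomucoids, pentraxin 3, ceruloplasmin, Saa1 and Saa2 did not pass the test in either direction. In edgeR's quasi-likelihood test, 3 of 10 transcripts were called higher at an adjusted p under 0.05, against 0.798% of all tested genes, and 0 were called lower, against 0.217%. At an unadjusted p under 0.05 the count was again 3 higher (10.5% of all genes) and 0 lower (7.37%). DESeq2 called the same 3 higher, against 4.67% of the genes to which it gave an adjusted p, and 0 lower, against 1.53%. In 3 of 10 transcripts every Adipoq-F2-KO library lay above every FFA2 fl/fl library, against 8.86% of all genes, and in 0 of 10 it lay below, against 8.72%. The log2 fold change was above 0 for 9 of the 10 and below 0 for 1, and the median was 0.36 against 0.0037 over all tested genes. Because the libraries are bulk RNA, a change in the number of cells of a type and a change in mRNA per cell cannot be told apart.

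**Figure D1:**
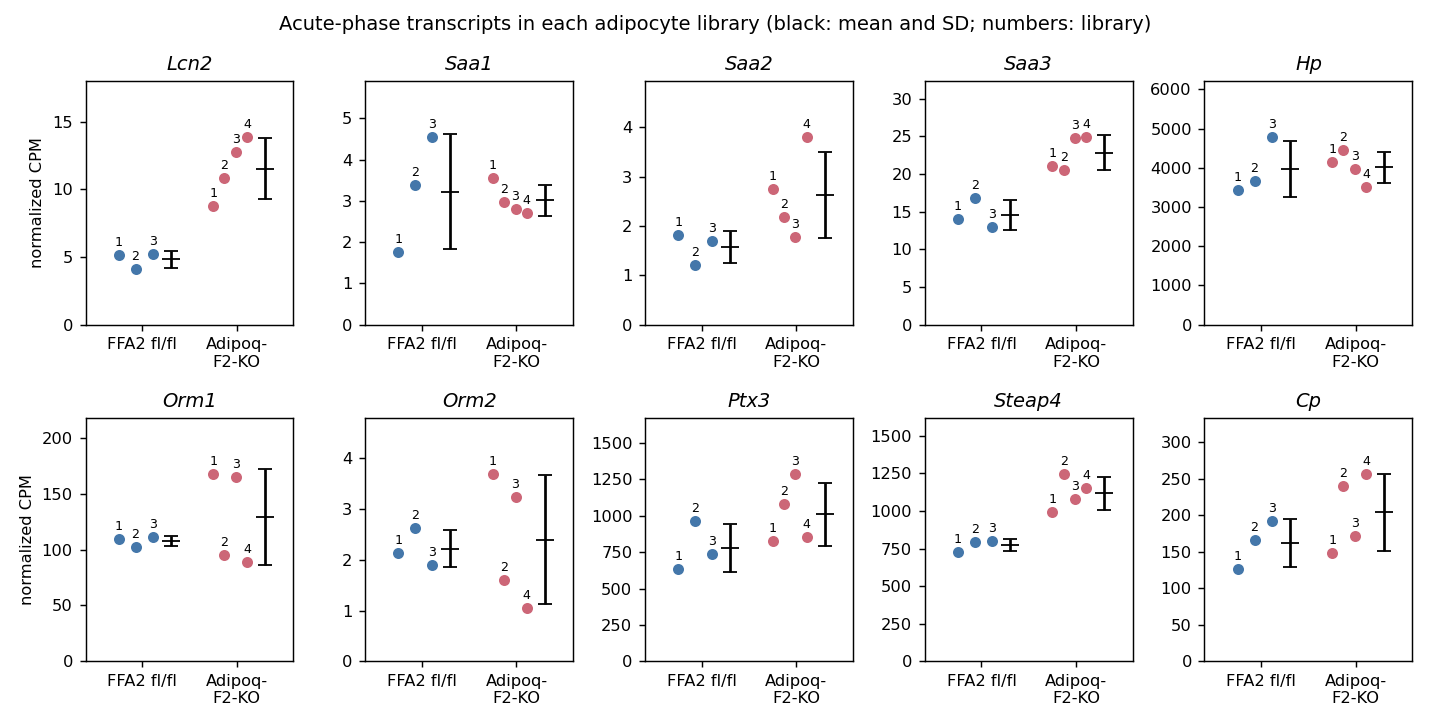
Normalized CPM of the 10 transcripts in each adipocyte library of 3 FFA2 fl/fl mice and 4 Adipoq-F2-KO mice, each axis starting at 0, with the library number above each point and the mean and SD in black. Genotypes are separate for Lcn2, Saa3 and Steap4, where the lowest Adipoq-F2-KO libraries (8.73, 20.5 and 990.1 CPM) lie above the highest FFA2 fl/fl libraries (5.21, 16.8 and 801 CPM).

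Lcn2 (ENSMUSG00000026822, chromosome 2, 32274645 to 32278264 on the minus strand in the deposited table) encodes lipocalin-2. It was measured at 5.15, 4.08 and 5.21 CPM in FFA2 fl/fl libraries 1 to 3 and at 8.73, 10.8, 12.7 and 13.8 CPM in Adipoq-F2-KO libraries 1 to 4. All 4 Adipoq-F2-KO libraries were above all controls, with no overlap. The means were 4.82 ± 0.636 CPM (SD, n = 3) and 11.5 ± 2.24 CPM (SD, n = 4). In edgeR the log2 fold change was 1.26 (SE 0.19, 95% interval 0.83 to 1.68, adjusted p = 0.0332), the 19th smallest p of all genes, and the exact two-sided permutation test gave p = 0.0286, the smallest that 3 against 4 libraries allow. These levels rest on 162 to 193 counts in the controls and 348 to 460 in Adipoq-F2-KO libraries. The CV was 13.2% in the controls, against 10.6% from counting alone, and 19.5% in Adipoq-F2-KO libraries, against 7.13% from counting alone.

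Of the serum amyloid A genes, which lie together on chromosome 7, Saa3 was called and Saa1 and Saa2 were not. Whether their changes differ from each other was not tested. Saa3 (ENSMUSG00000040026, 46361422 to 46365124, minus strand), the member of the family known for expression outside the liver, was at 14.1, 16.8 and 12.9 CPM in FFA2 fl/fl libraries and at 21.1, 20.5, 24.8 and 24.9 CPM in Adipoq-F2-KO libraries. The groups did not overlap, and Adipoq-F2-KO libraries 3 and 4 were the highest. Means were 14.6 ± 2.00 CPM (SD, n = 3) and 22.8 ± 2.34 CPM (SD, n = 4), and edgeR gave a log2 fold change of 0.64 (SE 0.13, 95% interval 0.35 to 0.94, adjusted p = 0.04995). Its p ranked 173rd, the last of all genes to pass, and the exact two-sided permutation test gave p = 0.0286.

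Saa1 (ENSMUSG00000074115, 46389921 to 46392404, minus strand) and Saa2 (ENSMUSG00000057465, 46401214 to 46403737, plus strand) encode the forms that circulate in the acute phase. Saa1 was measured at 1.76, 3.38 and 4.54 CPM in FFA2 fl/fl libraries and at 3.56, 2.98, 2.79 and 2.71 CPM in Adipoq-F2-KO libraries. The controls enclosed all 4 Adipoq-F2-KO values, and the log2 fold change was -0.10 (SE 0.32, 95% interval -0.79 to 0.60, edgeR adjusted p = 0.906). Saa2 was measured at 1.82, 1.21 and 1.70 CPM in FFA2 fl/fl libraries and at 2.76, 2.19, 1.77 and 3.80 CPM in Adipoq-F2-KO libraries. Only Adipoq-F2-KO library 3 lay below the highest control, and the log2 fold change was 0.74 (SE 0.35, edgeR adjusted p = 0.297), a 1.67-fold difference with a 95% interval of 0.981 to 2.83. With 48 to 155 counts per library for either gene, a change of the size seen in Lcn2 lies inside the interval for Saa2 and outside that for Saa1.

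Saa1 and Saa2 are near copies. Their longest coding transcripts in GENCODE M21 were 87.3% identical, with an identical stretch of up to 99 bases and 0 of 460 windows of the 150-base read length shared in full, and their RefSeq promoters, 300 bases each, were 95.3% identical against 50.1% for Saa1 and Saa3. Saa2 made up 26.4% to 58.3% of the pair's counts. Summed, the pair was at 3.58, 4.59 and 6.24 CPM in FFA2 fl/fl libraries and at 6.32, 5.16, 4.56 and 6.51 CPM in Adipoq-F2-KO libraries, which overlapped (log2 fold change 0.23, SE 0.23, edgeR adjusted p = 0.647). How the reads of the 2 genes were divided is uncertain, since the counting options are not stated.

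Steap4 (ENSMUSG00000012428, chromosome 5, 8010457 to 8032213, plus strand) encodes a reductase of iron and copper in the membranes of fat cells. Its levels were 726, 795 and 801 CPM in FFA2 fl/fl libraries and 990.1, 1246, 1081 and 1154 CPM in Adipoq-F2-KO libraries. The controls lay close together and below every Adipoq-F2-KO library, of which library 1 was the lowest. Means were 774 ± 41.8 CPM (SD, n = 3) and 1118 ± 109 CPM (SD, n = 4). The log2 fold change was 0.53 (SE 0.10, 95% interval 0.31 to 0.75, edgeR adjusted p = 0.0411), with p = 0.0286 in the exact two-sided permutation test. It was the smallest of the 3 called changes, and at 27182 to 41026 counts per library the one least affected by counting error.

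Cp (ENSMUSG00000003617, chromosome 3, 20011218 to 20063309, plus strand) encodes ceruloplasmin, which oxidizes iron as it leaves the cell. The levels were 127, 167 and 192 CPM in FFA2 fl/fl libraries and 148, 240.2, 172 and 257 CPM in Adipoq-F2-KO libraries. Adipoq-F2-KO libraries 2 and 4 were above all controls, while libraries 1 and 3 lay among them. The log2 fold change was 0.34 (SE 0.19, 95% interval -0.09 to 0.76, edgeR adjusted p = 0.392). The gene overlaps Hps3 on the opposite strand.

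Hp (ENSMUSG00000031722, chromosome 8, 110301760 to 110305804, minus strand), which encodes haptoglobin, took 59.0% to 71.9% of the summed CPM of the 10 transcripts. It was measured at 3442, 3668 and 4779 CPM in FFA2 fl/fl libraries and at 4152, 4453, 3959 and 3501 CPM in Adipoq-F2-KO libraries. The 4 Adipoq-F2-KO values lay inside the range of the 3 controls. The means were 3963 ± 716 CPM (SD, n = 3) and 4016 ± 399 CPM (SD, n = 4), and the log2 fold change was 0.02 (SE 0.13, 95% interval -0.27 to 0.30, edgeR adjusted p = 0.960). With 103213 or more counts in every library, counting error was under 1% of the level and the spread between libraries set the interval.

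The orosomucoid genes Orm1 (ENSMUSG00000039196, 63262797 to 63266400) and Orm2 (ENSMUSG00000061540, 63280686 to 63284115) lie side by side on the plus strand of chromosome 4. Orm1 was measured at 109.7, 102 and 111 CPM in FFA2 fl/fl libraries and at 168, 94.7, 164 and 89.3 CPM in Adipoq-F2-KO libraries. The controls were within a CV of 4.34%, whereas the Adipoq-F2-KO libraries split, with libraries 1 and 3 above every control and libraries 2 and 4 below every control (CV 33.2%, against about 2.09% from counting). Orm2 was measured at 2.14, 2.62 and 1.90 CPM in FFA2 fl/fl libraries and at 3.69, 1.61, 3.24 and 1.05 CPM in Adipoq-F2-KO libraries. It was again high in libraries 1 and 3 and low in libraries 2 and 4, as was the third gene of the family, Orm3, at 17.0, 10.5, 13.7 and 9.36 CPM. The log2 fold changes were 0.26 (SE 0.21, 95% interval -0.20 to 0.72, edgeR adjusted p = 0.551) for Orm1 and 0.11 (SE 0.42, 95% interval -0.81 to 1.03, edgeR adjusted p = 0.918) for Orm2.

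The longest coding transcripts of Orm1 and Orm2 were 91.0% identical, and Orm2 took 1.16% to 2.50% of the pair's counts, so its values could include a small share of misassigned Orm1 reads. The summed pair gave the same result as Orm1 (log2 fold change 0.26, SE 0.21, edgeR adjusted p = 0.559). Cp, by contrast, was lowest in the Adipoq-F2-KO libraries in which the orosomucoids were highest. A cause of this split within the genotype was not tested.

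Ptx3 (ENSMUSG00000027832, chromosome 3, 66127331 to 66133226, plus strand) encodes pentraxin 3, a long pentraxin that opsonizes microbes and is made by many cell types in response to interleukin-1 and tumor necrosis factor. Its levels were 635, 960.2 and 736 CPM in FFA2 fl/fl libraries and 824, 1078, 1286 and 851 CPM in Adipoq-F2-KO libraries. FFA2 fl/fl library 2 was above Adipoq-F2-KO libraries 1 and 4, so the groups overlapped. The log2 fold change was 0.38 (SE 0.18, 95% interval -0.01 to 0.76, edgeR adjusted p = 0.290), and the exact two-sided permutation test gave p = 0.2.

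**Figure D2:**
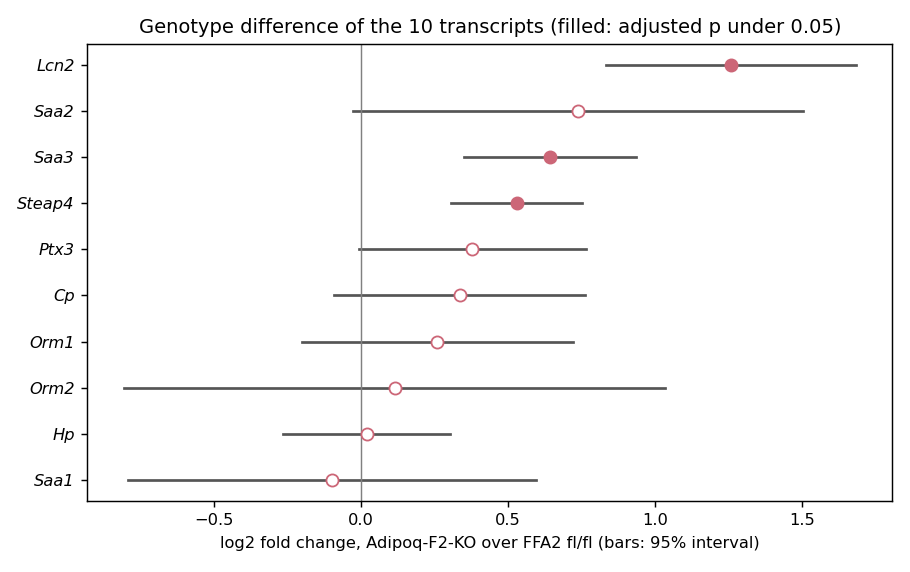
Log2 fold change of each transcript, Adipoq-F2-KO (n = 4) over FFA2 fl/fl (n = 3), with edgeR's 95% interval. Lcn2 (1.26), Saa3 (0.64) and Steap4 (0.53) are filled as called, and the intervals of the other 7 cross 0.

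Leaving out 1 library at a time kept the direction and size of the 3 called changes, and most of the calls were lost. The log2 fold change of Lcn2 lay between 1.15 and 1.37 over the 7 fits, that of Saa3 between 0.57 and 0.76 and that of Steap4 between 0.48 and 0.58. Without Adipoq-F2-KO library 1, Lcn2 (adjusted p = 0.0164) and Steap4 (adjusted p = 0.0387) were called, and without Adipoq-F2-KO library 4 they were called too (adjusted p = 0.0317 and 0.0430). For Lcn2, the adjusted p was 0.195 without FFA2 fl/fl library 1, 0.0599 without 2 and 0.0886 without 3, and 0.0570 and 0.0546 without Adipoq-F2-KO libraries 2 and 3. For Steap4, the same 5 fits gave 0.227, 0.0845, 0.155, 0.0701 and 0.0689. Saa3 was called in 0 of 7 fits, with adjusted p between 0.0574 without Adipoq-F2-KO library 1 and 0.244 without FFA2 fl/fl library 1. Calls over all genes dropped from 173 to 1, 41 and 5 without FFA2 fl/fl libraries 1, 2 and 3, and to 11 and 20 without Adipoq-F2-KO libraries 2 and 3.

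Saa1 changed sign without FFA2 fl/fl library 3 (log2 fold change 0.24), as did Orm2 without Adipoq-F2-KO library 1 (-0.17) or 3 (-0.06), and Hp without FFA2 fl/fl library 1 (-0.07) or 2 (-0.03) or Adipoq-F2-KO library 2 (-0.03). None of these was called in any of the 7 fits, and no adjusted p of the 7 uncalled transcripts was under 0.196.

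**Figure D3:**
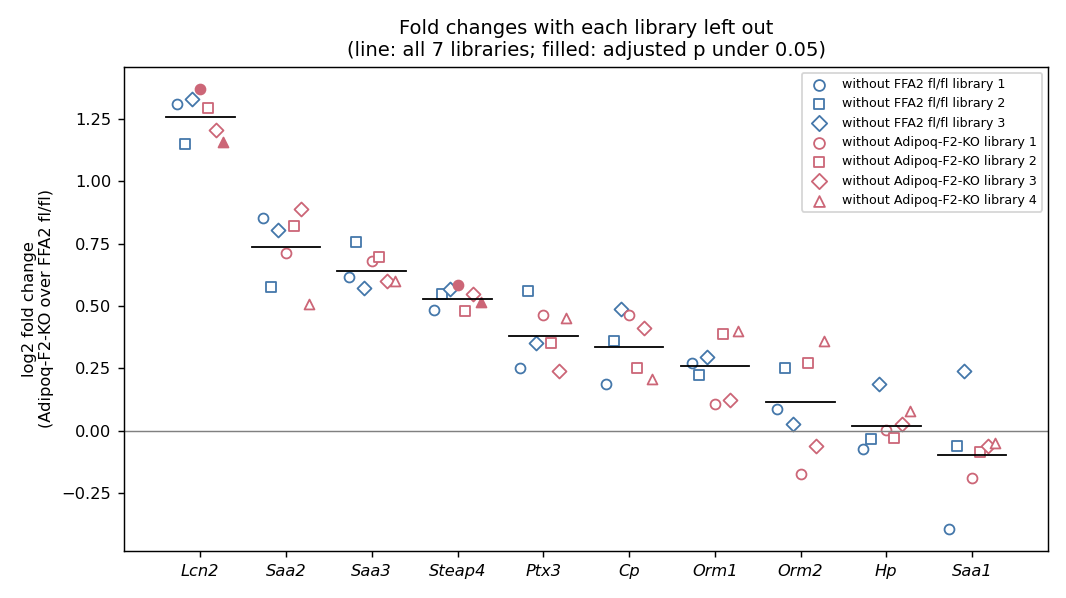
Log2 fold change of each transcript with all 7 libraries (line) and with 1 library left out (symbols, filled where the adjusted p was under 0.05). Lcn2, Saa3 and Steap4 stay above 0 in every fit, while Saa1, Hp and Orm2 fall on both sides of 0.

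Levels of different transcripts were compared as CPM per kilobase of the summed exon length in the deposited table, as means over the 7 libraries. Hp was highest at 2486 CPM per kilobase, ahead of Ptx3 (339), Steap4 (308) and Orm1 (155). Cp followed at 19.4 CPM per kilobase, then Saa3 (7.40), Lcn2 (3.30), Orm2 (2.99), Saa1 (1.252) and Saa2 (0.865). The libraries of Ptx3 and Steap4 overlapped in both genotypes, as did those of Saa1 and Saa2, so the order within these pairs is not beyond their spread. For Lcn2 and Orm2 the order depended on the genotype. Every FFA2 fl/fl library of Orm2 (2.46 to 3.38 CPM per kilobase) lay above every one of Lcn2 (1.56 to 1.99), while the Adipoq-F2-KO libraries overlapped. Orm2 and Saa1 overlapped in Adipoq-F2-KO libraries alone. Saa3 was above Lcn2 within each genotype, although its lowest control library (4.96 CPM per kilobase) was under the highest Adipoq-F2-KO library of Lcn2 (5.28).

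The summed exon length counts every annotated model of a gene, and it was 2478 bases for Saa1, 2518 for Saa2 and 2623 for Lcn2, whose longest coding transcripts had 609, 652 and 915 bases. Divided by the coding transcript instead, a scale chosen after seeing the data, Lcn2 (9.45) moved ahead of Saa3 (8.77), and Saa1 (5.10) and Saa2 (3.34) ahead of Orm2 (2.99). The first 5 places did not change. Of the 3 transcripts that were called, then, Steap4 was among the abundant ones and Lcn2 and Saa3 among the scarce ones on either scale.

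**Figure D4:**
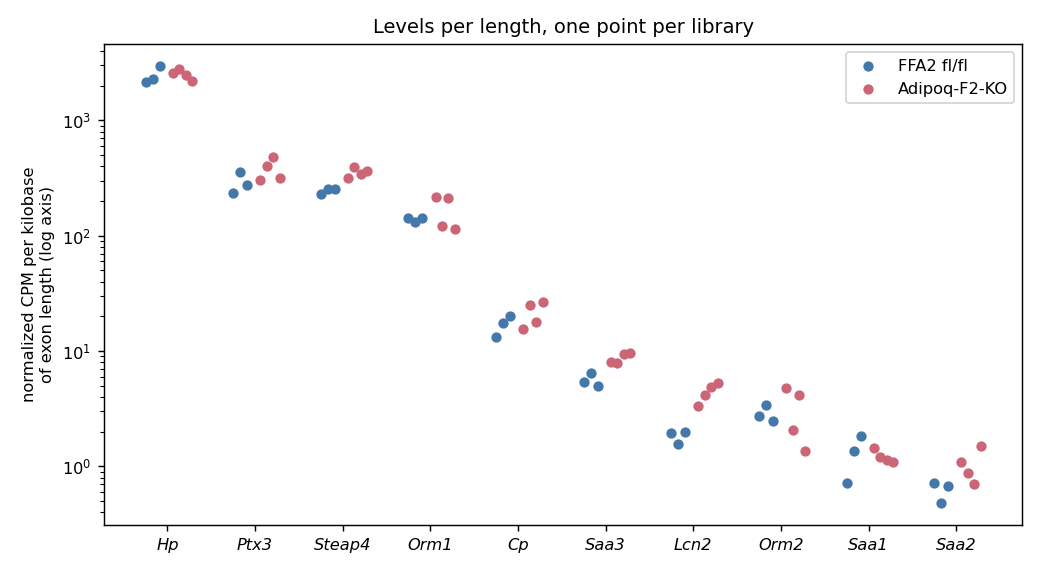
Normalized CPM per kilobase of summed exon length on a log axis, 1 point per library, with transcripts in the order of their mean. Levels run from 2486 for Hp to 0.865 for Saa2, and the genotype differences of Lcn2 and Saa3 are seen among transcripts below 10 CPM per kilobase.

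Several cell types of the fat pad make these proteins, and their markers were read beside the results. The 16 macrophage markers summed to 633 to 756 CPM in FFA2 fl/fl libraries and 846 to 1031 CPM in Adipoq-F2-KO libraries, 14 of 16 were higher and 2, Lyz2 (log2 fold change 0.69) and Cd68 (0.72), were called. Endothelial markers (10 of 10 higher, 0 called, 1027 to 1370 against 1449 to 2316 CPM) and fibroblast progenitor markers (10 of 12 higher, 0 called, 1373 to 1753 against 1739 to 2114 CPM) were also higher, and all 12 adipocyte markers were lower, with 0 called. These calls are those of edgeR, which called 0.798% of all tested genes higher and 0.217% lower. At an unadjusted p under 0.05 it passed 11 macrophage, 8 endothelial and 6 fibroblast progenitor markers as higher and 7 adipocyte markers as lower. DESeq2 called 9, 5 and 2 higher and 4 adipocyte markers (Lipe, Pck1, Plin4 and Slc2a4) lower. Over all genes the shares were 10.5% higher and 7.37% lower at that unadjusted p, and 4.67% and 1.53% in DESeq2. Markers of neutrophils, a known source of lipocalin-2, were scarce. Of 12, 3 passed the filter (1 higher, 2 lower, 0 called), and Ly6g was at 0 in every library. The sum was 4.08 to 6.12 CPM in controls and 4.28 to 6.03 CPM in Adipoq-F2-KO libraries. S100a8 was at 1.66 to 2.75 CPM in controls and 1.06 to 2.65 CPM in Adipoq-F2-KO libraries, and Elane at 1.44 to 2.03 and 0.803 to 1.40 CPM. S100a9 and Mpo did not pass the filter. S100a9 was at 0 to 0.176 CPM in controls and 0.0502 to 0.339 CPM in Adipoq-F2-KO libraries. Mpo was at 0 CPM in controls and at 0 to 0.304 CPM in Adipoq-F2-KO libraries. Whether the S100a8 and Elane counts come from neutrophils was not tested. The 10 hepatocyte markers summed to 3009 to 4082 CPM in controls and 2785 to 3366 CPM in Adipoq-F2-KO libraries, nearly all of it Cyp2e1 (2993 to 4061 and 2764 to 3339 CPM). Of 4 that passed the filter 3 were higher and 1 lower, edgeR called 0 (1 higher at an unadjusted p under 0.05), and DESeq2 called Apoa1, at 4.38, 1.56 and 3.46 CPM in controls and 6.22, 9.14, 5.75 and 19.2 CPM in Adipoq-F2-KO libraries. Fgb and Tat were at 0 in every library, and the cell type behind the Cyp2e1 counts was not tested.

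Set against the macrophage, endothelial and fibroblast progenitor sums, Lcn2 remained separate by genotype. Per 1000 CPM of macrophage markers it was at 8.14, 5.401 and 7.52 in FFA2 fl/fl libraries. In Adipoq-F2-KO libraries it was at 9.97, 12.8, 13.2 and 13.4. The genotypes did not overlap per endothelial or fibroblast progenitor markers either. The adipocyte sum was itself lower in every Adipoq-F2-KO library (at most 50858 CPM) than in every control (at least 51915 CPM). Transcripts already separate in CPM, as Lcn2, Saa3 and Steap4 were, therefore had to stay separate per adipocyte markers. Saa3 per 1000 CPM of macrophage markers was at 22.2, 22.2 and 18.6 against 24.1, 24.2, 25.7 and 24.1, which did not overlap, but per endothelial or fibroblast progenitor markers the genotypes overlapped. Steap4 was separate per adipocyte and fibroblast progenitor markers, and per 1000 CPM of macrophage markers it was at 1146, 1052 and 1156 against 1130, 1474, 1121 and 1118, which overlapped, as it did per endothelial markers. Ptx3, which overlapped in CPM, was separate per adipocyte markers alone, a sum that was itself lower in every Adipoq-F2-KO library. These ratios are a description chosen after seeing the data, and the part of these cell types in the genotype difference was not tested.

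Genes induced by tissue dissociation, a response that collagenase treatment can start, summed to 11896 to 15111 CPM in FFA2 fl/fl and 12229 to 13580 CPM in Adipoq-F2-KO libraries, with 9 of 15 higher, 0 called by edgeR or DESeq2, 1 higher at an unadjusted p under 0.05 in edgeR, and a list median of 0.04 on the log2 scale.

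A list of 34 cytokines, receptors and factors that control acute-phase genes held inducers and also inhibitors, such as Nfkbia and Socs3. Its counts are therefore not counts of inducers alone. Of these genes 33 were tested, 27 were higher (81.8%, against 50.4% of all tested genes) and 6 lower. The median log2 fold change was 0.39. In this list edgeR called 4 genes, each of them higher, against 0.798% of all tested genes called higher. DESeq2 called 11 higher, against 4.67% of its genes, and 0 lower, against 1.53%. At an unadjusted p under 0.05 edgeR passed 18 higher (10.5% of all genes) and 2 lower (7.37%). The same shares over all genes apply to the lists below. Tnf, tumor necrosis factor, was at 12.6, 16.8 and 13.7 CPM in FFA2 fl/fl libraries and at 41.4, 30.8, 44.1 and 63.8 CPM in Adipoq-F2-KO libraries (log2 fold change 1.65, SE 0.22, edgeR adjusted p = 0.0192). Il6 was at 18.9, 31.0 and 22.8 CPM against 41.8, 63.2, 80.5 and 83.3 CPM (log2 fold change 1.47, SE 0.24, edgeR adjusted p = 0.0332). Neither overlapped between genotypes. Nfkb2, a subunit of the noncanonical NF-kB pathway, differed by 0.63 on the log2 scale (SE 0.11, edgeR adjusted p = 0.0332), and Osmr, the oncostatin M receptor, by 0.92 (SE 0.17, edgeR adjusted p = 0.0396).

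In this list of cytokines, receptors and factors, the genes most abundant per length did not pass the test. The log2 fold changes were 0.14 for Nfkbia, the NF-kB inhibitor, -0.31 for Cebpa, 0.09 for Socs3, the feedback inhibitor of STAT3 signaling, and 0.09 for the tumor necrosis factor receptor Tnfrsf1a, with edgeR adjusted p between 0.377 and 0.842. For 11 of the 33 tested genes all Adipoq-F2-KO libraries lay above all controls, against 8.86% of all genes, and for 3 they lay below, a share close to the 8.72% of all genes.

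**Figure D5:**
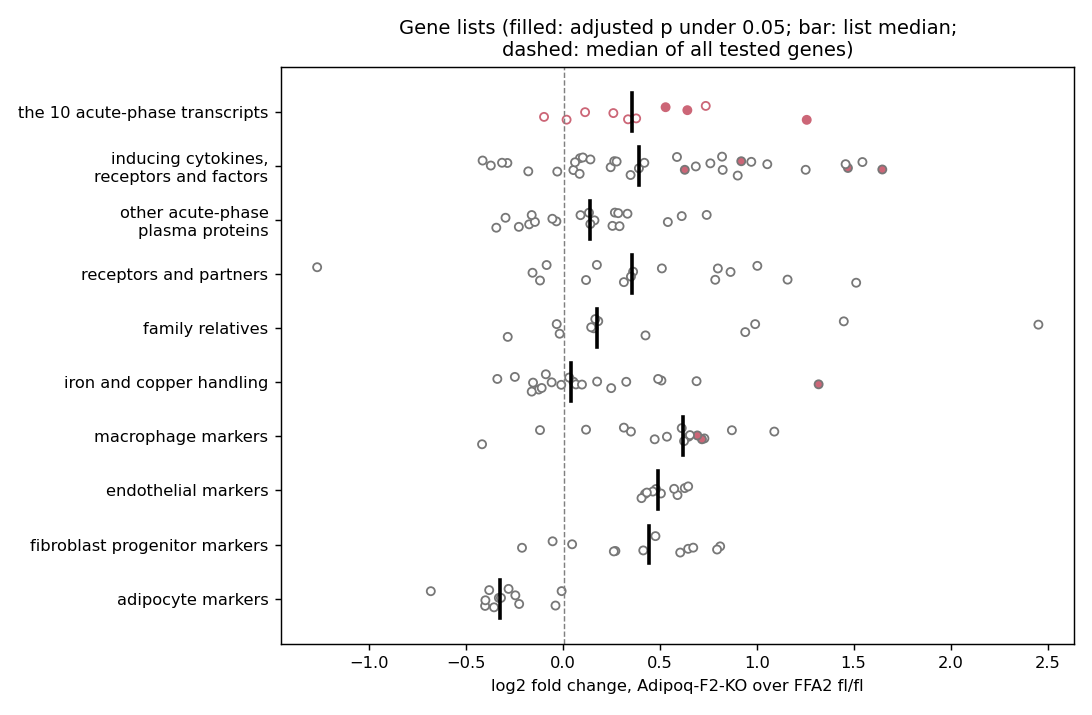
Log2 fold change (x axis) of each tested gene of the 10 acute-phase transcripts, 5 related lists and 4 marker lists, with the list median as a bar and the median of all tested genes (0.0037) as a dashed line. Medians run from -0.32 for adipocyte markers to 0.62 for macrophage markers, and filled points are genes called at an adjusted p under 0.05.

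Receptors and binding partners of the 10 proteins showed 0 of 16 tested genes called in either direction (12 higher, 4 lower, list median 0.36 on the log2 scale) in edgeR. At an unadjusted p under 0.05 edgeR passed 9 higher and 0 lower, and DESeq2 called 4 higher, Mmp9, Selp, Tlr2 and Tnfaip6, named after their values were seen. The list shares 4 genes, C1qa, C1qb, C1qc and Cd163, with the macrophage markers. Slc22a17, a receptor for lipocalin-2, was at 25.7 ± 1.62 CPM (SD, n = 3) in controls and 23.02 ± 3.80 CPM (SD, n = 4) in Adipoq-F2-KO libraries, and Tnfaip6, a partner of pentraxin 3 in the hyaluronan matrix, at 38.7 ± 9.64 and 67.4 ± 21.1 CPM. The other abundant members were Lrp1 and the complement genes C1qa and C1qb, with log2 fold changes of -0.08, 0.35 and 0.31. Pentraxin 3 binds the product of C1qa and C1qb. Lrp1 clears heme bound to hemopexin, which is not one of the 10 proteins.

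Of 20 genes for iron and copper handling, the processes in which STEAP4, ceruloplasmin, haptoglobin and lipocalin-2 take part, 11 were higher and 9 lower, and the list median was 0.04 on the log2 scale. At an unadjusted p under 0.05 edgeR passed 5 higher and 1 lower. DESeq2 called Hmox1 and the metal transporters Slc11a1 and Slc39a14 higher. By edgeR only Hmox1, which breaks down heme, was called. It was at 58.2, 77.5 and 83.7 CPM in FFA2 fl/fl libraries and at 134, 128, 187 and 281 CPM in Adipoq-F2-KO libraries (log2 fold change 1.32, SE 0.25, edgeR adjusted p = 0.0406). Erythroid markers, mostly hemoglobin chains, summed to 97.6 to 224 CPM in controls and 209 to 372 CPM in Adipoq-F2-KO libraries (5 of 5 tested higher, 0 called by edgeR or DESeq2, 2 at an unadjusted p under 0.05 in edgeR), and their part in the Hmox1 difference was not tested. Transferrin (Trf), the ferritin chains Fth1 and Ftl1 and the iron exporter Slc40a1, the partner of ceruloplasmin at the cell membrane, had log2 fold changes of -0.16, -0.06, -0.12 and -0.01 and did not pass.

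Relatives of the 10 genes in the same families showed 0 of 12 tested genes called (9 higher, 3 lower, median log2 fold change 0.18) by edgeR, 2 higher and 0 lower at an unadjusted p under 0.05, and 0 called by DESeq2. The most abundant were Rbp4, a lipocalin that carries retinol, at 445 and 366 CPM on average in controls and in Adipoq-F2-KO libraries, the ceruloplasmin relative Heph at 139.9 and 138 CPM, Steap3 at 38.5 and 37.7 CPM and Orm3 at 11.2 and 12.6 CPM. Other acute-phase genes, mostly of plasma proteins, showed 0 of 20 tested genes called (12 higher, 8 lower, median log2 fold change 0.14) by edgeR, 4 higher and 1 lower at an unadjusted p under 0.05, and 2 called higher by DESeq2, Cd14 and Serpina3n. The list pools proteins that rise in the acute phase with some that fall, such as albumin, so these counts give no acute-phase direction. In this list C4b and the metallothionein Mt1, which is not a plasma protein, had log2 fold changes of -0.17 and 0.26. The liver products Apcs, Fgb, Fgg, Mbl1 and Mbl2 were at 0 in every library. Serpina3n, named after its values were seen as the 1 gene of that list without overlap, was at 543 ± 73.3 CPM (SD, n = 3) and 684 ± 40.1 CPM (SD, n = 4), which edgeR fitted as a log2 fold change of 0.33 (SE 0.11, edgeR adjusted p = 0.143).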

How the data were processed

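Mature perigonadal adipocytes of 3 control (FFA2 fl/fl) mice and of 4 Adipoq-F2-KO mice had been sequenced as stranded, poly(A)-selected read pairs. The authors used Trimmomatic for trimming, STAR for alignment and featureCounts for counting, and the deposited values are whole-number counts per gene without normalization, beside coordinates and summed exon lengths. Tool versions and counting options are not given in the sources used here. The submitters' processing notes name GRCm38, but the table's coordinates differ from that build and are given as deposited. RefSeq promoters (GRCm38.p6) and GENCODE M21 transcripts served for sequences alone. Most low counts (85.5% to 88.8% of values from 1 to 49) were even, so both mates of a pair appear to have been counted, and the limit that 0 counts allow was set at 6 counts (3 fragments). Of 57010 identifiers, 52029 matched a symbol. No library pair lay within sampling noise (lowest chi-square per degree of freedom 18.9).

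Counts were filtered (filterByExpr), normalized (TMM) and tested two-sided with edgeR 4.0.16 (glmQLFit, glmQLFTest) in R 4.3.3, adjusting p by Benjamini and Hochberg over 17039 genes. edgeR estimated a common biological coefficient of variation of 0.258, and the TMM factors lay between 0.968 and 1.02. An unnamed gene, ENSMUSG00000119584, took 0.619% to 6.76% of counts and mitochondrial genes 4.41% to 10.3%. Printed means and SDs refer to CPM after TMM, and log2 fold changes are edgeR's. Single transcripts were also compared by an exact permutation test over all 35 splits. The edgeR test was tested on simulated counts with genes of known fold change. Alternatives were DESeq2 1.42.0, limma 3.58.1 (voom), other scalings, filters, dispersions and library totals, summed gene copies, a replicate block and each library left out. The study's own methods used DESeq2.

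All 10 transcripts and Ffar2 are named. From each related list, called genes are named and otherwise up to 4 of the most abundant per length. One gene that this rule names is not reported here. Slc22a17, Slc40a1, Serpina3n, S100a9, Mpo, the genes shared between lists, those that DESeq2 alone called and those at 0 in every library were named after their values were seen. The transcripts and lists were chosen with earlier results of these data known, so list counts are given as descriptions with no test over the list.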

Additional observations from a re-analysis of the deposited data

How the results depend on the processing

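Lcn2 and Steap4 were called under all 11 alternatives other than the left-out libraries (log2 fold changes 1.15 to 1.27 and 0.51 to 0.54), and Saa3 under 9 of 11 (0.60 to 0.65). The exceptions for Saa3 were the fit without the abundant unnamed gene and mitochondrial genes (log2 fold change 0.64 as with all genes, adjusted p = 0.0511) and the replicate block (adjusted p = 0.102). The number of transcripts called higher was 3 with all libraries and genes, 2 in those 2 fits, and between 0 and 2 with 1 library left out: 0 without FFA2 fl/fl library 1, 2 or 3 or Adipoq-F2-KO library 2 or 3, and 2 without Adipoq-F2-KO library 1 or 4.

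Uncalled transcripts near 0 changed sign under some settings. Saa1 was at a log2 fold change of 0.023 in limma voom, 0.23 summed with Saa2 and 0.031 with the replicate block, and Hp at -0.0040 with library totals as the scale. With 1 library left out, Saa1 ranged from -0.39 to 0.24, Hp from -0.073 to 0.19 and Orm2 from -0.17 to 0.36. The cause was not tested. In order of level, 4 of 10 transcripts kept their place when CPM was not divided by length, and 5 of 10 with the longest coding transcript as the length, an alternative chosen after seeing the data.

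Replicate numbers are shared by the genotypes in the labels, but nothing says that a number marks a litter or day. Deviations of same-numbered libraries correlated at 0.03, -0.02 and -0.02, and 1 of 3 FFA2 fl/fl libraries correlated best with its own number, so the numbers were not taken as pairs. The block left out Adipoq-F2-KO library 4, called 2 of the 10 transcripts and gave 223 calls over all genes. Without that library and without the block, calls over all genes were 166, with 2 of the 10 transcripts called. With all libraries and no block they were 173. Calls over all genes were 890 in DESeq2, 1403 with every gene of at least 1 count and 272 with at least 1 CPM in 3 libraries. Saa1, Saa2 and Orm2 had 31 to 155 counts per library, for which counting alone gives a CV of 13.0% to 18.6% within a genotype. The CV between libraries was 12.7% to 52.8%, above the counting value in 5 of 6 cases.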
